A study of Mus musculus with 2 samples.

Results

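The Mir135 family of the mouse comprises 3 microRNA (miRNA) genes, Mir135a-1, Mir135a-2 and Mir135b. They were chosen by gene symbol, and all 3 were found among the 1973 miRNA genes counted. The counts come from miRNA sequencing of neural tube, the embryonic precursor of brain and spinal cord, dissected at embryonic day 12.5 from mice of strain B6NCrl. The only group holds 2 biological replicates, each a pool of male and female embryos, with 120 embryos in replicate 1 and 88 in replicate 2. Since these samples hold a single tissue and age and no treatment, the comparisons made are those among the family's genes, those with other miRNA genes of the same tissue and those between the replicate libraries.

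A miRNA gene is transcribed as part of a longer RNA, from which a hairpin is cut. Either arm of the hairpin, called 5p and 3p after its side, can yield a mature miRNA, and the bases near its 5′ end, the seed, pair with target messenger RNAs. Members of the miR-135 family are known to repress Apc, an inhibitor of Wnt signalling. The copy in Rmst is known from the embryonic midbrain, where it acts on Lmx1b and on Wnt-dependent dopaminergic progenitors, and miR-135 is also known from serotonergic neurons of the adult brain.

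The sequences are shown because they decide which reads a gene count can hold. They were taken from RefSeq on the GRCm38.p6 build, in which all 3 members had a hairpin and 5 entries for mature miRNAs. The 5p arm below is written 5′ to 3′ with the seed, bases 2 to 8, in capitals. It is listed at both Mir135a loci, at chr9:106154140-106154162 on the plus strand and at chr10:92072141-92072163 on the minus strand.
miR-135a-5p: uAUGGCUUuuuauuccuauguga
For the 3p arms the table lists a separate sequence at each locus, at chr9:106154179-106154200 (plus strand), chr10:92072104-92072124 (minus strand) and chr1:132198142-132198163 (plus strand) in the order shown. Capitals again mark bases 2 to 8.
miR-135a-1-3p: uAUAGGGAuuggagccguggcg
miR-135a-2-3p: uGUAGGGAuggaagccaugaa
miR-135b-3p: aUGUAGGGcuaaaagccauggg
To compare the 5p side across the family, the 25 bases of each hairpin that begin where miR-135a-5p aligns are given next, with capitals for the seed and for any base that differs from miR-135a-5p.
Mir135a-1: uAUGGCUUuuuauuccuaugugauu
Mir135a-2: uAUGGCUUuuuauuccuaugugauc
Mir135b: uAUGGCUUuuCauuccuaugugauu

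On the 5p side the hairpins of Mir135a-1 and Mir135a-2 are identical over 24 bases, which cover the whole mature miRNA of 23 bases and 1 base more. Mir135b differs from miR-135a-5p by the substitution U11C, counted from 1 at the 5′ end of miR-135a-5p, and has the same seed. The longest run that Mir135b shares with Mir135a-1 is 14 bases, and with Mir135a-2 it is 13 bases. No gene outside the family had a mature miRNA with the seed of miR-135a-5p among the 1738 mature entries of the table. These hold no 5p entry for Mir135b itself, so genes without a listed arm can be missed.

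The 3p arms are less alike. Without gaps, miR-135a-1-3p and miR-135a-2-3p match at 15 of 21 bases. Shifted by 1 base, miR-135b-3p matches miR-135a-1-3p at 14 of 21 bases and miR-135a-2-3p at 16 of 21. Bases 2 to 8 differ among all 3 of them, and no other gene in the table shares any of those 3 seeds.

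These identities bear on the counts, because the deposited files tally multi-mapping reads, those that match several places, in a separate row outside every gene. They numbered 3448592 in replicate 1 and 2698981 in replicate 2, or 0.718 and 0.610 for each read assigned to a gene. That row is a total for the whole library, and what part of it came from miRNA genes is not given. A read of miR-135a-5p itself matches both Mir135a loci. The counts of Mir135a-1 and Mir135a-2 therefore can hold reads of their 3p arms, or of the 5p side where a read reaches beyond the shared bases, while the count of Mir135b can hold reads of both arms. How the reads of a gene divide between its arms is not part of the files. In 141767 annotated transcripts, miR-135a-5p was found on the sense strand in its own 2 genes only, and its reverse complement in Glyctk only. The stretch of Mir135b was found in Mir135b alone, and each 3p arm on the sense strand in its own gene only, with the reverse complement of miR-135a-1-3p also in Glyctk. Sequence outside annotated transcripts was not searched.

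The 3 genes lie on different chromosomes. In GENCODE M21 on the mm10 assembly, Mir135b spans chr1:132198088-132198184 on the plus strand, in an intron of Lemd1, a protein-coding gene with a LEM domain, and of AC124108.1, a second protein-coding annotation over the same place. The nearest exon of Lemd1 lies 2.78 kb away. Mir135a-2 spans chr10:92072086-92072185 on the minus strand, in an intron of the long non-coding RNA Rmst, 0.376 kb from its nearest exon, and 2 of the 14 annotated Rmst transcripts reach across it. Mir135a-1 spans chr9:106154124-106154213 on the plus strand, in an intron of D030055H07Rik, annotated as an antisense gene, 0.739 kb from its nearest exon. On the opposite strand the same bases lie in the untranslated part of an exon of Glyctk, the gene of glycerate kinase. RNA of these host genes was not measured here.

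**Figure D1:**
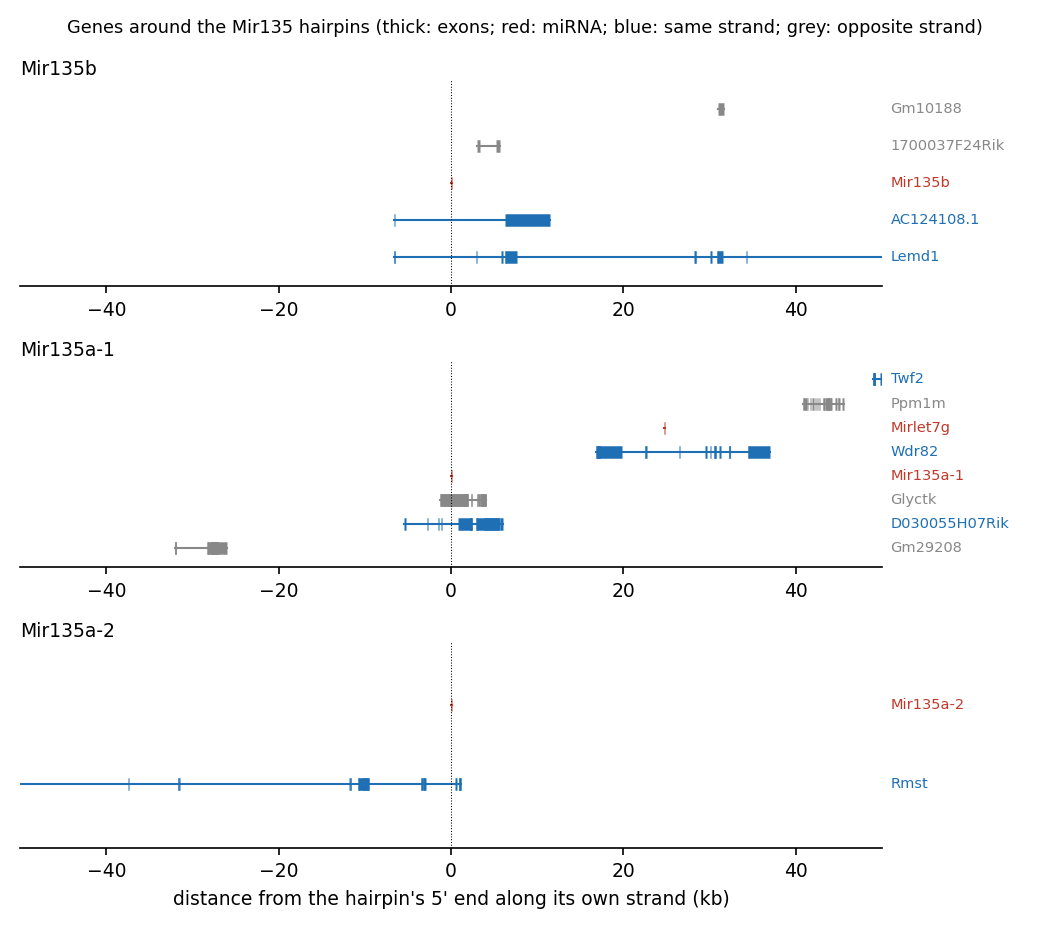
Genes within 50 kb of each Mir135 hairpin, by distance in kb from the hairpin's 5′ end along its own strand, with exons as thick bars. All 3 hairpins (red, at 0) lie in introns of genes on their own strand (blue); Mir135a-1 also lies opposite an exon of Glyctk (grey). Pseudogenes and small RNAs other than miRNAs are not drawn.

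The hairpins also differ in composition. Mir135b, 97 bases long, holds 53.6% G and C and was predicted to fold at -48.7 kcal/mol. Mir135a-1 has 90 bases, 46.7% G and C and -43.5 kcal/mol. Mir135a-2, the longest at 100 bases, holds 33.0% and has the weakest predicted fold at -34.5 kcal/mol.

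Reads on the gene's own strand numbered 4802411 in replicate 1 and 4422853 in replicate 2 over all miRNA genes. Levels are given as reads per 1000000 of these (CPM). A count of 0 allows up to 0.625 CPM in replicate 1 and 0.678 CPM in replicate 2 (3 reads), and the 371 genes with at least 10 reads in each library are called detected. The genes listed as neural markers made up 33.7% and 32.5% of gene reads in replicates 1 and 2. Nearly all of it came from the Hox cluster genes Mir10a and Mir10b, and whether from neural cells was not tested. The other 8 neural markers held 0.312% and 0.375%. Most of that was Mir137, at 2541 and 3077 CPM, while Mir9-2 had 5.41 and 2.49 CPM. All 10 neural marker genes in the files had reads, although Mir124a-1, Mir124a-2 and Mir124a-3, genes of the classical neuronal miRNA with a mature miRNA common to several loci, had at most 10.8 CPM in a library. Among markers of other cells, the sensory neuron genes held 1.91% and 2.61%, the endothelial gene Mir126a 2.03% and 1.83%, mesenchyme 1.15% and 1.05%, epithelium 0.167% and 0.180%, muscle 0.0811% and 0.0470%, leukocytes 0.0218% and 0.0187%, erythroid cells 0.00914% and 0.00886%, and liver 0.00323% and 0.00140%. Of these markers, Mir133a-1 and Mir133a-2 of muscle were at 0 reads in both libraries. The muscle gene Mir1a-1 had 1 read in replicate 1 and 0 in replicate 2. Nearly all muscle marker reads were of Mir206, with 3895 in replicate 1 and 2078 in replicate 2. A gene count of 0 need not mean that its miRNA was absent, because multi-mapping reads were tallied outside every gene. Genes taken as markers of other cell types thus had reads in the samples, though the counts do not assign reads to cells. What part such cells had in the Mir135 levels was not tested. Fewer cells of a type cannot be told apart from less RNA per cell.

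All 3 Mir135 genes were detected, in the order Mir135b, Mir135a-1, Mir135a-2 in each library. Together they held 14754 reads in replicate 1 and 12863 in replicate 2, which is 0.307% of the gene reads (95% exact binomial interval 0.302 to 0.312) and 0.291% (0.286 to 0.296). Most of them were Mir135b reads, 86.6% of the family's reads in replicate 1 (86.0 to 87.1) and 88.2% in replicate 2 (87.6 to 88.7). These intervals cover counting error only and not the spread between libraries. They treat reads as independent. Where no molecular identifiers are used, amplified copies of 1 molecule are counted as separate reads, and the intervals are then too narrow.

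Mir135b (ENSMUSG00000065435) had 12773 reads in replicate 1 and 11343 in replicate 2, or 2660 CPM (2614 to 2706) and 2565 CPM (2518 to 2612). The values lie close together, with a mean of 2612 ± 67.2 CPM (SD, n = 2) and a rank of 59 among the 1973 genes. Its only listed mature miRNA, the 3p arm, is found at no other gene, and neither is the stretch of its 5p side shown above. The lack of a listed 5p arm does not mean that Mir135b yields none.

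Mir135a-1 (ENSMUSG00000065407) had 1485 and 1067 reads, or 309.2 CPM (293.7 to 325.4) in replicate 1 and 241.2 CPM (227.0 to 256.2) in replicate 2. Replicate 1 was the higher, and the counting intervals of the libraries did not overlap. Differences beyond counting error were common, since 53.1% of all detected genes passed the exact binomial test between the libraries described below. The mean was 275.2 ± 48.1 CPM (SD, n = 2), rank 143, with the largest relative spread of the family at 17.5% of the mean.

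Mir135a-2 (ENSMUSG00000065524), the gene in Rmst, had 496 and 453 reads, or 103.3 CPM (94.4 to 112.8) and 102.4 CPM (93.2 to 112.3). The libraries gave nearly the same level, and their intervals overlapped almost entirely. The mean was 102.9 ± 0.607 CPM (SD, n = 2) at rank 192, somewhat below the median of 114.7 CPM over the detected genes. Each counting interval spans far more than this SD, so the closeness of the libraries is below what their read numbers can resolve.

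No read fell on the opposite strand of any member in either library. For Mir135a-1 this covers the strand of the Glyctk exon, where at most 0.625 and 0.678 CPM are allowed by a count of 0.

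**Figure D2:**
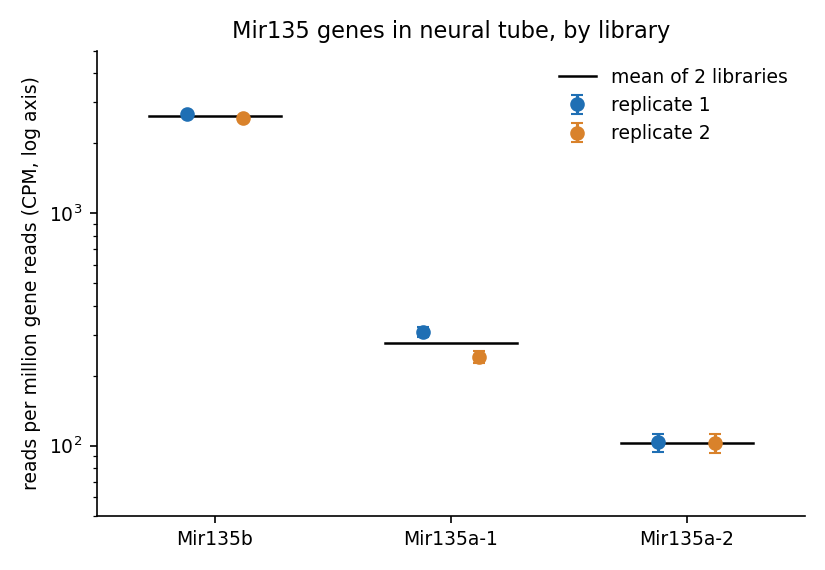
Level of each Mir135 gene in CPM on a log axis, 1 point per library (blue, replicate 1; orange, replicate 2), with 95% exact binomial intervals for counting error as bars and the mean of the libraries as a line. Mir135b lies near 2612 CPM, Mir135a-1 near 275.2 and Mir135a-2 near 102.9, and the only visible gap between the libraries is that of Mir135a-1.

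Within a library, Mir135b had 8.60 times the reads of Mir135a-1 in replicate 1 and 10.6 times in replicate 2, a ratio of 9.62 ± 1.44 (SD, n = 2). Against Mir135a-2 it had 25.8 and 25.0 times the reads, a ratio of 25.4 ± 0.504. A ratio of 1 was far outside the spread in each case. Against Mir135a-1 and Mir135a-2 together the ratio was 6.96 ± 0.718. Per base of hairpin the ratios were 8.92 ± 1.33 to Mir135a-1 and 26.2 ± 0.519 to Mir135a-2. These are ratios of uniquely assigned reads, and reads of miR-135a-5p that map to both Mir135a loci are in none of them, so they do not give the ratio of miR-135b to miR-135a molecules.

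The Mir135a loci share their 5p arm, so reads of that arm alone are missing from the counts of both. Mir135a-1 had 2.99 times the reads of Mir135a-2 in replicate 1 and 2.36 times in replicate 2, a ratio of 2.67 ± 0.452 (SD, n = 2), or 2.97 ± 0.502 per base of hairpin. Taken the other way, the ratio of Mir135a-2 to Mir135a-1 was 0.379 ± 0.0640. Mir135a-1 thus held 75.0% of the reads of the pair in replicate 1 (73.0 to 76.9) and 70.2% in replicate 2 (67.8 to 72.5). It was the higher locus in both libraries, beyond counting error, while the intervals of the libraries did not overlap with each other. With 2 libraries no exact permutation test can go below p = 0.5, so no test of this order was made.

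Other miRNAs are also encoded at a pair of loci, and reads of their common mature form are likewise in no gene's count. The sequence table held 40 pairs of genes that are the only loci of an identical mature miRNA, and in 19 of them both genes were detected. The pairs are not all separate, since Mirlet7c-2 is paired with Mirlet7c-1 and also with Mirlet7a-1. Some rest on few reads, such as the 15 and 11 of Mir450-2 in replicates 1 and 2. By the mean of the libraries the leading locus held between 53.5% and 98.6% of the pair's reads, with a median of 74.7%. Mir135a-1, with 72.6% ± 3.37 (SD, n = 2), came close to that median, with 8 pairs more even and 10 less even. The neural pairs lay on both sides. Mir128-1, in a family of brain-enriched miRNAs, held 58.1% ± 0.757 of its pair, Mir7-1 held 61.1% ± 1.03, and Mir138-1, a gene of a synaptic miRNA, 63.9% ± 6.77. Mir218-2, a motor neuron miRNA gene, held 87.5% ± 0.313, and Mir219a-2, a gene of the oligodendrocyte lineage, 93.1% ± 1.60. In total reads the Mir135a pair, at 378.1 CPM, was at the median of the 19 pairs.

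**Figure D3:**
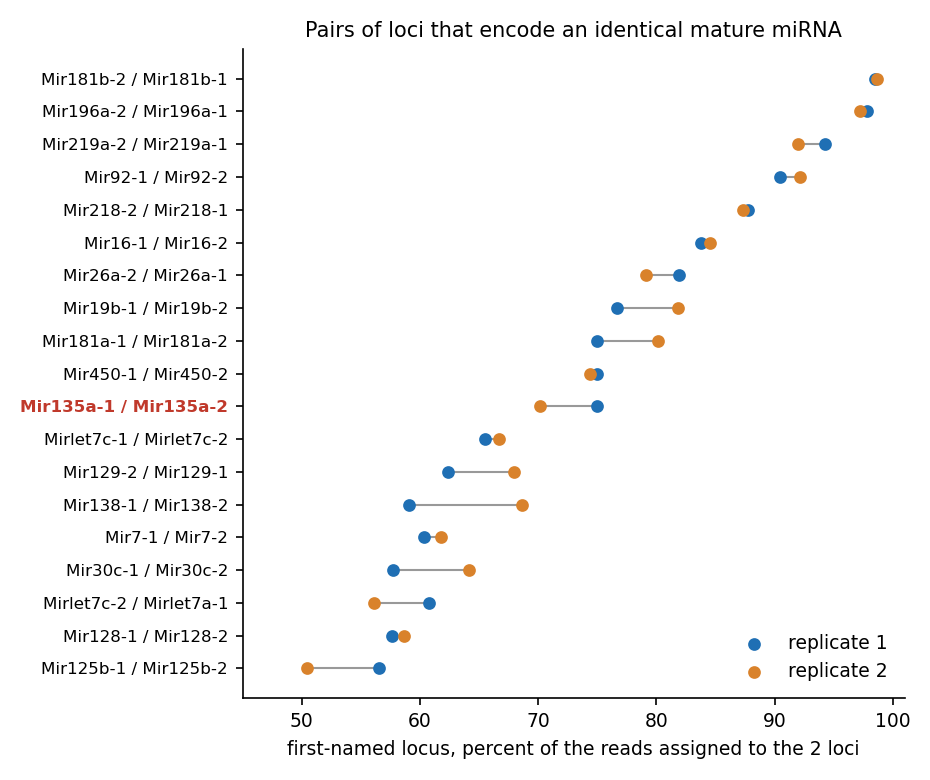
Share of the reads of a pair of genes that fell on the locus named first, in percent, for the 19 detected pairs that encode an identical mature miRNA (blue, replicate 1; orange, replicate 2; grey line, the span between them). Mir135a-1 and Mir135a-2 (red) lie at 75.0% and 70.2%, and the points of single libraries run from 50.5% to 98.6%.

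Of the counted genes with a mature miRNA in the table, 829 had no listed arm in common with another gene, among them Mir135b, and 34.9% of these were detected. Another 53 had some arms in common with another gene, among them Mir135a-1 and Mir135a-2, and 73.6% of these were detected. The remaining 34 had all listed arms in common with another gene, and 23.5% of these were detected. Detection thus did not rise steadily with the sharing of arms. The median level of the detected genes was 127.3 CPM with no arm in common, 139.8 CPM with some and 129.8 CPM with all. Mir135b stood above the median of its class, Mir135a-1 above and Mir135a-2 below that of theirs.

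For each gene the read numbers of the libraries were set against each other in an exact binomial test, two-sided, with totals scaled by the trimmed mean of M-values (TMM), with Benjamini-Hochberg adjustment over the 371 detected genes and a threshold of 0.05. This compares the libraries, not conditions. Of all detected genes 53.1% passed it in either direction, 26.1% were higher and 27.0% lower in replicate 1. Of the 3 Mir135 genes 1 passed, and it was higher in replicate 1. Mir135a-1 was 1.25-fold higher in replicate 1, a log2 ratio of 0.32 on the scale of CPM + 1 (adjusted p = 1.04e-07, exact binomial test). Mir135b had a log2 ratio of 0.01 (adjusted p = 0.589) and Mir135a-2 one of -0.03 (adjusted p = 0.850) and neither passed the exact test. With library totals not scaled by TMM, Mir135b passed as well, at a log2 ratio of 0.05 (adjusted p = 0.0107, exact binomial test), and the log2 ratio of Mir135a-2 turned to 0.01. In that setting 52.0% of all detected genes passed, 111 higher and 82 lower in replicate 1.

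The common coefficient of variation of the detected genes was 16.4%, or an SD of 0.33 when expressed on the scale of log2 ratios, and the log2 ratio of Mir135a-1 was slightly smaller than this SD. A larger absolute log2 ratio was found in 33.4% of the detected genes. For Mir135a-2 and Mir135b that share was 92.7% and 96.5%. The difference in Mir135a-1 thus exceeded counting error and did not exceed the usual spread between these replicates. At a minimum of 2-fold, 1.89% of the detected genes passed and none of the 3 members, whose largest fold was the 1.25 of Mir135a-1.

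**Figure D4:**
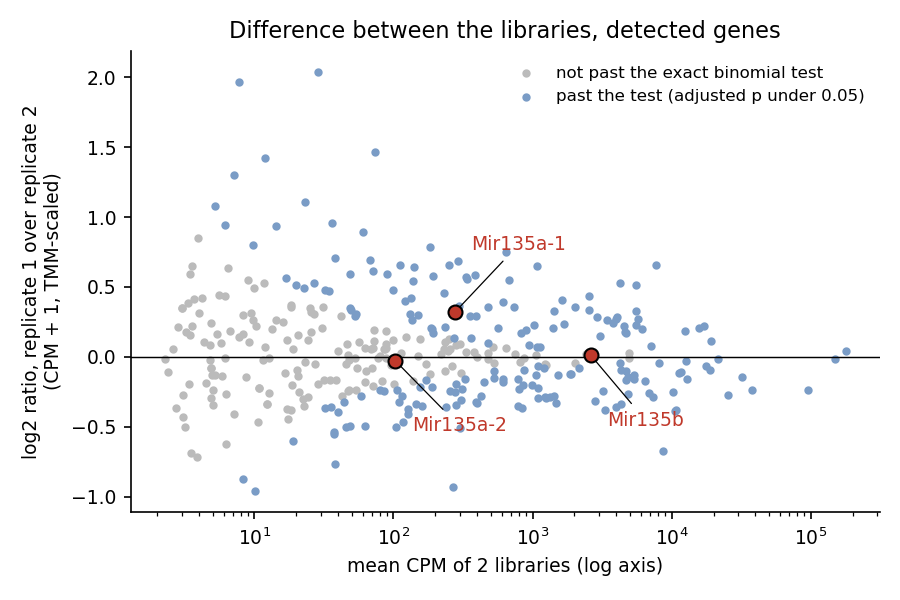
Log2 ratio of replicate 1 over replicate 2 against the mean CPM (log axis) for the 371 detected genes, in blue where the exact binomial test was passed. Mir135b and Mir135a-2 (red) lie on the line of no difference at 0.01 and -0.03, and Mir135a-1 lies at 0.32, within the cloud of genes of similar level.

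The only other miRNA gene within 50 kb of a member is Mirlet7g, a gene of the let-7 family that marks differentiating tissue. It starts 24.7 kb from Mir135a-1 on the same strand, in an intron of Wdr82 (chr9:106178840-106178927). Mirlet7g had 17388 CPM in replicate 1 and 17704 CPM in replicate 2. It exceeded Mir135a-1 by 56.2 times in replicate 1 and 73.4 times in replicate 2, a ratio of 64.8 ± 12.1 (SD, n = 2). Its log2 ratio between the libraries was -0.06, opposite in sign to that of Mir135a-1. Whether the neighbours share a primary transcript is not measured by these counts.

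The genes closest in level to each member were the 2 above and the 2 below it in mean CPM over the 2 libraries. Around Mir135b these were Mir137, a regulator of neuronal differentiation, at 2809 ± 379.0 CPM (SD, n = 2), Mir872 at 2719 ± 69.9, Mir22 at 2565 ± 469.6 and Mirlet7d at 2541 ± 588.3. Mir872 differed from Mir135b by more than the larger SD of that pair, and the others did not. Around Mir135a-1 they were Mir671 at 282.8 ± 17.6 CPM, Mir218-2 at 281.2 ± 41.7, Mir16-2 at 275.2 ± 28.4 and Mir132, a gene induced by neuronal activity, at 270.5 ± 22.9, all within the spread. The ranks of Mir135a-1 are accordingly loose, and 18 other genes had means between its library values. Around Mir135a-2 they were Mir19a at 105.7 ± 10.4 CPM, Mir7b at 104.1 ± 23.5, Mir27a at 100.8 ± 7.71 and Mir500 at 100.3 ± 1.21, of which Mir500 alone differed by more than the larger SD.

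The sample descriptions name neural tube and do not say whether midbrain was included. Other miRNA genes linked to midbrain dopaminergic neurons or to Wnt1 were Mir133b, Mir132, Mir34a, Mir34b, Mir34c, Mir7-1, Mir7-2 and Mir7b. All 8 were detected, at 11.7 to 445.2 CPM, with a median of 126.6 CPM. Mir34c led at 423.1 CPM in replicate 1 and 467.3 in replicate 2. Mir133b, known from midbrain for its loop with Pitx3 and also a muscle miRNA, was lowest at 14.2 and 9.27 CPM. Mir135b stood above all 8. By uniquely assigned reads, Mir135a-1 stood below Mir34c and level with Mir132 within the spread. Mir135a-2 stood just below Mir7b, by less than the spread of Mir7b. Reads of the common 5p arm are missing from both Mir135a counts, so these positions rest on part of their reads. The counts of Mir7-1 and Mir7-2 likewise lack reads of their identical mature miRNA. Of the 8 genes, 3 were higher and 2 lower in replicate 1 by the exact binomial test, and 3 did not pass, so 5 of 8 passed where 53.1% of all detected genes did. The median log2 ratio of the list was 0.09, against 0.00 over all detected genes.

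A further list of neural miRNA genes, which shares Mir132 with the one above, spanned a wider range. Its members Mir137, Mir153, Mir132, Mir212, Mir149, Mir488, Mir129-1 and Mir129-2 ranged from 5.73 to 7046 CPM, although Mir129-1 and Mir129-2 encode an identical mature miRNA and are no single-locus genes. Mir149 led with 7334 CPM in replicate 1 and 6757 in replicate 2, and Mir153 had 807.9 and 806.3 CPM. Mir135b came below Mir149 and above Mir153 in both libraries, and its order with Mir137 turned between them, with Mir137 at 2541 CPM in replicate 1 and 3077 in replicate 2. Of these 8 genes, 2 were higher and 1 lower in replicate 1 by the exact binomial test, against 26.1% and 27.0% of all detected genes. Among 19 neural genes with several loci in the files, Mir7-1 and Mir7-2 of the midbrain list included, 17 were detected. They included Mir181a-1, the gene of an abundant brain miRNA, at 3963 ± 622.4 CPM (SD, n = 2) and Mir9-3, from the neural progenitor family Mir9, at 283.1 ± 21.1 CPM, which differed from Mir135a-1 by less than the spread. Of the 17, 6 were higher and 7 lower in replicate 1, against the same 26.1% and 27.0%, and nothing particular to these genes is read from the counts.

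**Figure D5:**
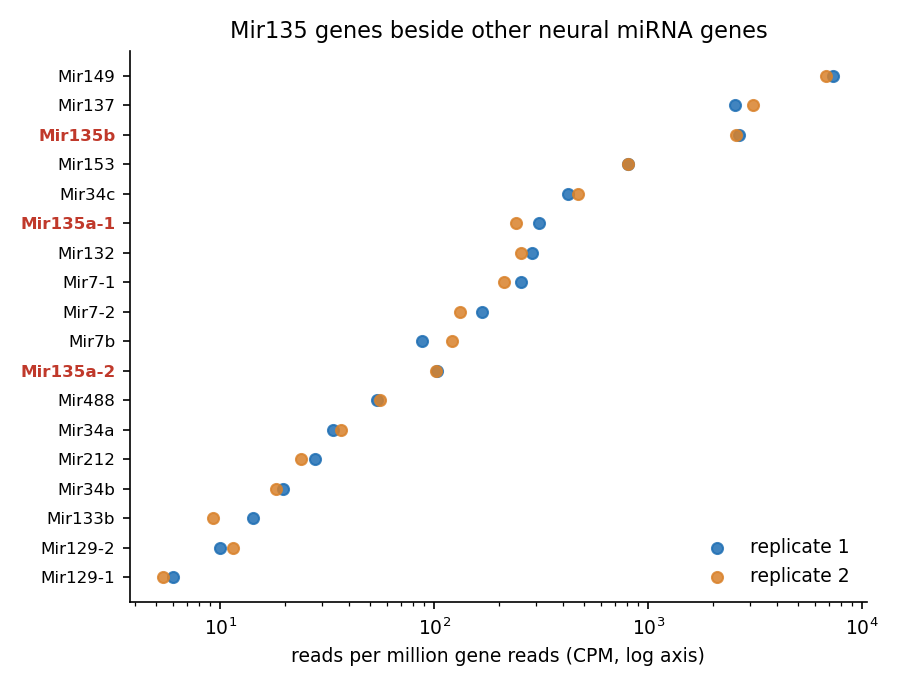
CPM (log axis) of the Mir135 genes (red) and of neural miRNA genes from the midbrain list and the list of single genes, 1 point per library (blue, replicate 1; orange, replicate 2), ordered by mean. Mir135b lies next to Mir137, Mir135a-1 between Mir34c and Mir132, and Mir135a-2 just below Mir7b.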

How the data were processed

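MicroRNA sequencing libraries (total RNA, size range under 30 per the labels) of 2 embryo pools were analysed. The values are raw read counts per miRNA gene, deposited by the authors as 1 table per library with a column for both strands and a column for each. Per the deposited text descriptions the counts use mm10 and annotation M4. Which aligner, trimming and counting tools were used is not given in the sources used here. The 4 rows that name no gene were left out of totals. They held, in replicates 1 and 2, unmapped reads (27.3% and 20.0% of all reads), multi-mapping reads (27.0% and 28.6%), reads outside any feature (8.04% and 4.45%) and ambiguous reads (0 in both). The own-strand column was used. Whether both pools were prepared in the same way is not stated, and p-values measure only these 2 libraries.

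Symbols and positions came from GENCODE M21, which matched 1894 of 1973 identifiers, and sequences from RefSeq (GRCm38.p6). TMM factors and the common coefficient of variation came from edgeR 4.0.16 (R 4.3.3). With 1 group there is no contrast for edgeR's quasi-likelihood test. Folding used ViennaRNA 2.7.2, other steps Python 3.11.15, scipy 1.17.1 and matplotlib 3.10.9. The exact binomial test was tested on simulated data with counting error only, which does not cover the spread between replicates. The log scale used CPM + 1. The genes named are the members, miRNA genes starting within 50 kb, the 2 genes above and 2 below each member in mean CPM, genes with a shared seed, and the lists. Other genes, among them examples of pairs with an identical mature miRNA, were named after their values were seen. Members and lists were chosen with earlier results of these data known. Entries Mir9-1, Mir142 and Mir1a-2 matched no counted symbol and were not analysed here. Alternatives were other scalings, read minimums, pseudocounts, denominators and strand columns, and leaving out each replicate.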

Additional observations from a re-analysis of the deposited data

How the results depend on the processing

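Levels moved most with the denominator. With reads mapping to several places added to it, Mir135a-1 had 164.9 CPM, Mir135a-2 61.9 and Mir135b 1570, and the family share was 0.180%, while ratios within a library cannot change. With both strands together Mir135a-2 had 101.2 CPM, a shift beyond its small SD. The log2 ratio of Mir135a-2 between the libraries turned to 0.0119 without TMM and to 0.0141 with at least 100 reads in both libraries. That of Mir135b turned to -0.0137 with at least 1 read in either library. It passed the exact binomial test at 0.0525 without TMM and at 0.0547 with at least 100 reads (adjusted p = 0.0107 and 0.00576). Mir135a-1 passed under each alternative tried, at log2 ratios from 0.29 to 0.36. The genes past the test were 186 of 736 (25.3%) with at least 1 read in either library and 182 of 269 (67.7%) with at least 100 in both, against 197 of 371. Higher and lower in replicate 1, they numbered 83 and 103 at the former minimum, 102 and 80 at the latter and 111 and 82 without TMM, against 97 and 100. Single libraries gave the ranges in the report. No paired analysis was possible because there is 1 group only. Read number limits Mir135a-2 most, with 453 reads in replicate 2.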
